A study of Mus musculus with 21 samples.

Results

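Endothelial cells of the lung and of the liver were compared by ATAC-seq, which cuts DNA with a transposase where chromatin is open and counts the resulting reads in each open region, or peak. The comparison rests on 7 of the 21 samples of the series: the lung libraries headed 1, 2, 4 and 5 in the deposited table (n = 4) and the liver libraries headed 1, 2 and 3 (n = 3). All were taken by the tissue and the assay in their labels, and 4 brain libraries of the same table are given beside them where they help to place a peak. Both groups came from C57BL/6J mice aged 2 to 4 months; the labels list neither a genetic change nor a treatment. Per the labels' protocols, the mice were perfused, the organs were digested, and live cells with CD31 and without PDGFRβ and CD45 on their surface were sorted, in the same way for both organs. The labels do not say whether the ATAC libraries came from separate animals, and p-values here reflect only how far the libraries scatter, part of which may be technical.

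The capillaries of the lung form a thin, closed wall around the air sacs and exchange gas. The sinusoids of the liver have a wall with open pores and no regular basement membrane, and their cells take up waste proteins from the blood with scavenger receptors. Both cell types share a general endothelial programme, and what sets them apart is written in part in distal regulatory regions, which are open in the cells that use them. The sources used here hold no genome or gene annotation of the build of the peaks (mm9), so peaks are named by position, counted from 1, with neither a gene nor a sequence. In a bulk sample, fewer cells with an open site and a site that is less open in every cell cannot be told apart.

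The libraries differed in depth. Lung libraries 1 and 2 held 5857763 and 6046832 counts in peaks, lung libraries 4 and 5 only 1335711 and 1244653, and the liver libraries 2162227, 2175575 and 1856763. Pearson correlations of log2 CPM across peaks, which are not independent replicates, ran from 0.83 to 0.956 among lung libraries, from 0.867 to 0.893 among liver libraries and from 0.712 to 0.775 across tissues, so every pair within a tissue lay above every pair between tissues. The lowest pair within lung was that of the shallow libraries 4 and 5. The first principal component held 49.7% of the variance and separated the tissues, and the second, with 16.4%, separated lung library 4 from lung library 5.

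Because the peaks carry no gene names, the sorted cell types could not be checked in the ATAC libraries themselves. They were checked in the RNA libraries of the same tissue labels, which are other samples, with levels as CPM of the total. The endothelial markers Pecam1, which encodes the CD31 used in the sort, and Cdh5, the adhesion protein of endothelial junctions, were present in both tissues: Pecam1 had 1739 ± 37.9 CPM in lung and 658 ± 58.5 in liver (SD, n = 3). Of the other endothelial markers, Tie1 was also higher in lung (276 ± 69.5 against 134 ± 22.9 CPM), Tek was at 535 ± 139.6 and 532 ± 109 CPM, and Kdr, a receptor of VEGF, had 893 ± 213.5 CPM in lung and 1240 ± 88.9 in liver. The lung capillary marker Ace, which makes angiotensin II, had 2588 ± 467 CPM in lung and 6.93 ± 4.25 in liver. The sinusoidal scavenger receptor Stab2 had 0.147 ± 0.255 CPM in lung and 1708 ± 215 in liver. RNA of other cells was present as well. The summed level of 3 lung epithelial markers was 290 to 1779 CPM in lung and 0 to 5.25 CPM in liver. In lung nearly all of it was Scgb1a1, the secretory protein of club cells, while the alveolar marker Sftpc stayed between 2.30 and 7.02 CPM. The remaining marker, Epcam, went the other way, with 0.56 ± 0.97 CPM in lung and 2.3 ± 2.7 in liver. It made up the whole liver sum, since Scgb1a1 and Sftpc were at 0 there. The summed level of 3 hepatocyte markers was 194 to 526 CPM in liver and 0 to 2.48 CPM in lung, where Alb and Ttr were at 0. Leukocyte markers summed to 49.8 to 98.9 CPM in lung and 5.90 to 14.5 in liver, and mural markers to 7.65 to 8.31 and 0.866 to 2.22. Of the pair of Kupffer cell markers only Clec4f was in the table, at no more than 0.817 CPM. Whether such cells entered the ATAC libraries, and their part in the results below, was not tested.

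Open chromatin differed between the tissues at many sites, and more sites were called in favour of liver. Of 41126 peaks that passed the filter on low counts, among 60119 in the table, 7713 were called, at an adjusted p under 0.05 (edgeR quasi-likelihood test, Benjamini-Hochberg over all peaks tested) and a difference of at least 2-fold; this is 18.8% of the peaks tested. Higher in lung were 2899 peaks (7.05%) and higher in liver 4814 (11.7%). Without a minimum fold, an adjusted p under 0.05 was reached by 25.7% of the tested peaks. At 6805 of the called peaks the values of lung and liver libraries were fully separate, which was so for 31.1% of all tested peaks, with lung on top at 14.1% and liver on top at 17.1%. These shares come from the same libraries as the calls and add no support to them.

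Among the called peaks, differences were larger on the liver side. The median size among called peaks was 1.51 on the log2 scale for those higher in lung and 1.71 for those higher in liver. A difference of at least 4-fold was found for 633 lung peaks (21.8% of the lung calls) and 1713 liver peaks (35.6%), and one of at least 8-fold for 77 and 343 peaks. At low levels only larger folds were called, and liver calls were more frequent than lung calls there. The sizes were not compared at equal level or under other scalings. The direction split depends on how libraries are scaled. With the scaling used here, the trimmed mean of M-values (TMM), 37.6% of the calls were higher in lung. With library size alone this share was 25.8%, and with an offset that follows the level of the peaks it was 48.3%; the median log2 fold change of all peaks was −0.06, −0.22 and −0.01 in these 3 fits. A peak without a call may still differ.

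**Figure D1:**
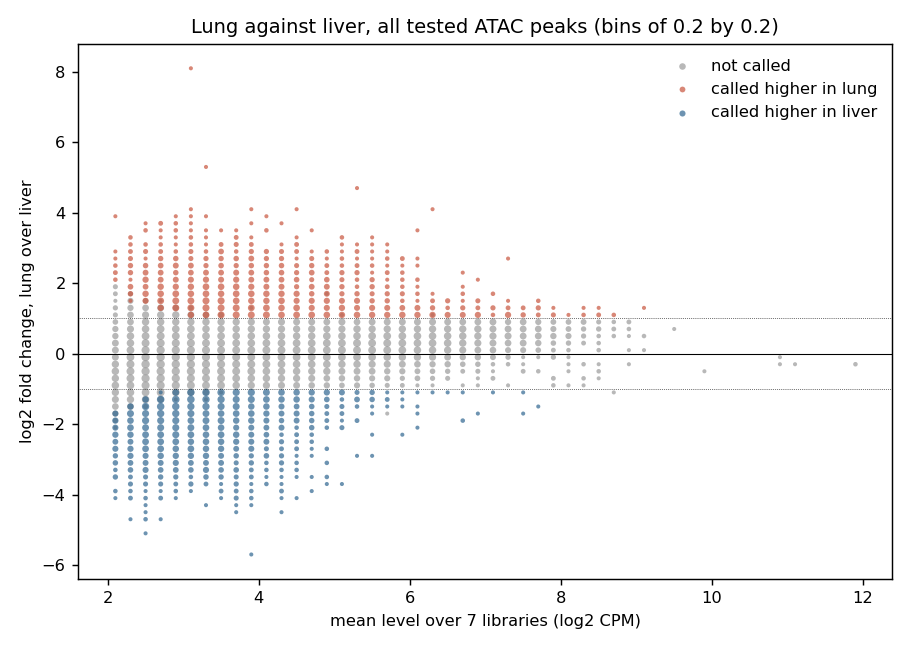
Log2 fold change of lung over liver (y axis) against the mean level over the 7 libraries (x axis, log2 CPM) for all 41126 tested peaks, in bins of 0.2 by 0.2, with dots that grow with the number of peaks in a bin. The 2899 peaks called higher in lung are red, the 4814 called higher in liver are blue, and dotted lines mark a 2-fold difference; blue bins crowd at low levels and red ones reach further to the right.

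In each direction the 10 largest folds were taken from the called peaks whose tissues were fully separate and whose mean log2 CPM was 3 or more. CPM here and below are counts in tested peaks, scaled by TMM to a common library total. The top peak in lung was chr14:86501326-86501636, 311 bases wide. Lung libraries 1, 2, 4 and 5 had 12.7, 17.6, 7.45 and 11.4 CPM there and all 3 liver libraries had 0 counts. In CPM of the total, the lung mean was 23.2-fold higher when the liver libraries together were set to a floor of 3 counts. This floor covers counting error on the liver side only. The brain libraries were low at this site as well, with 1.59 ± 1.59 CPM (n = 4).

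The second peak, chr2:84114438-84114875, had 11.3, 19.3, 15.7 and 11.4 CPM in lung and 0, 0.96 and 0 in liver. Its 201 lung and 2 liver counts give a ratio of 43.0 with a 95% counting interval of 11.7 to 357. At both sites the liver libraries held 2 counts or fewer in all.

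Wider and more open lung sites followed. At chr5:65486133-65486941 the lung libraries had 86.3, 61.6, 57.9 and 41.2 CPM and the liver libraries 4.64, 2.88 and 0. The log2 fold change was 4.60 (SE 0.37, edgeR adjusted p = 6.63e-15). The most open of the 10, at chr8:123399902-123401067, is 1166 bases wide. It had 191.6, 116, 103 and 123 CPM in lung against 5.10, 4.80 and 13.7 in liver, with a log2 fold change of 4.11 (SE 0.30, edgeR adjusted p = 4.49e-16). Brain was also low here, at 3.67 ± 2.46 CPM, while every lung library was above 100 CPM.

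The site chr3:15118676-15119289 had even values in lung, 38.0, 39.9, 44.7 and 34.2 CPM, against 1.85, 2.88 and 2.03 in liver. Its log2 fold change was 4.09 (SE 0.36, edgeR adjusted p = 9.13e-14). One site lay on the X chromosome, chrX:10056388-10056907, with 15.6 ± 1.11 CPM in lung and 0.996 ± 1.02 in liver. The remaining 4 were chr4:90468849-90469147, chr2:109023082-109023527, chr13:81362849-81363207 and chr2:148205643-148206191. They had lung means between 12.2 and 28.2 CPM, liver means between 0.64 and 1.99 CPM, and log2 fold changes from 3.82 to 4.13. The sizes of these folds rest on few liver counts. At chr4:90468849-90469147, with 4 liver counts, the log2 fold change was 8.15 without liver library 2, and the peak did not pass the filter without lung library 2, 4 or 5. At chr13:81362849-81363207, with 5 liver counts, it was 8.29 without liver library 3, and at chr2:148205643-148206191, with 12, it was 5.28. Leaving out 1 liver library also moved the second peak to 8.44 (without liver library 2), chr5:65486133-65486941 to 5.38 (without 1), chr8:123399902-123401067 to 4.81 and the X site to 4.99 (both without 3). The values of 8.15, 8.29 and 8.44 are fitted against liver libraries all at 0, so they depend on the prior count and are no measure of size. With 1 library left out, the calls stood wherever the peak was tested. At all 10 lung sites the mean of the brain libraries was at most 4.93 CPM, and at each it lay below the lung mean.

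The liver sites with the largest folds had low levels in every lung library. At chr3:72463003-72463463 the liver libraries had 38.9, 32.2 and 22.3 CPM and the lung libraries 0.20, 0.34, 1.66 and 1.75. The log2 fold change was −5.69 (SE 0.48, edgeR adjusted p = 1.21e-14), the largest on the liver side, and the shallow lung libraries 4 and 5 were the higher pair of the lung values. The same pair was the higher one at chr7:76219571-76220154, with 39.9, 47.0 and 30.4 CPM in liver and 0.40, 1.54, 4.14 and 3.51 in lung (log2 fold change −4.55, SE 0.39, edgeR adjusted p = 5.11e-14). A further site on the same chromosome, chr7:76952066-76952525, had 29.7, 29.8 and 41.6 CPM in liver and 2.01, 1.71, 0.83 and 0.88 in lung, where the shallow libraries were the lower pair.

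The site chr1:132325267-132325666 stood out for its even liver values, 27.8, 26.4 and 24.9 CPM, against 0.60 to 1.75 in lung (log2 fold change −4.54, SE 0.43, edgeR adjusted p = 1.04e-12). A pair of sites lay on chromosome 6. At chr6:17941538-17942047 liver had 48.7, 36.9 and 32.5 CPM and lung 1.66 to 2.73. At chr6:43624899-43625411 liver had 29.2, 27.4 and 26.9 CPM and lung 0.80 to 2.22. The last was the only one of the 10 liver sites with a brain mean over 10 CPM, 13.7 ± 2.17 (n = 4). The other 4 were chr5:17404761-17405163, chr13:48412833-48413196, chr1:172721664-172722116 and chr3:117210931-117211353, with liver means between 22.2 and 31.6 CPM and lung means between 0.88 and 1.88 CPM. Of the 10 liver folds, only that of chr13:48412833-48413196 moved by over 1.5 times when 1 library was left out, from −4.21 to −4.95 without lung library 2.

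**Figure D2:**
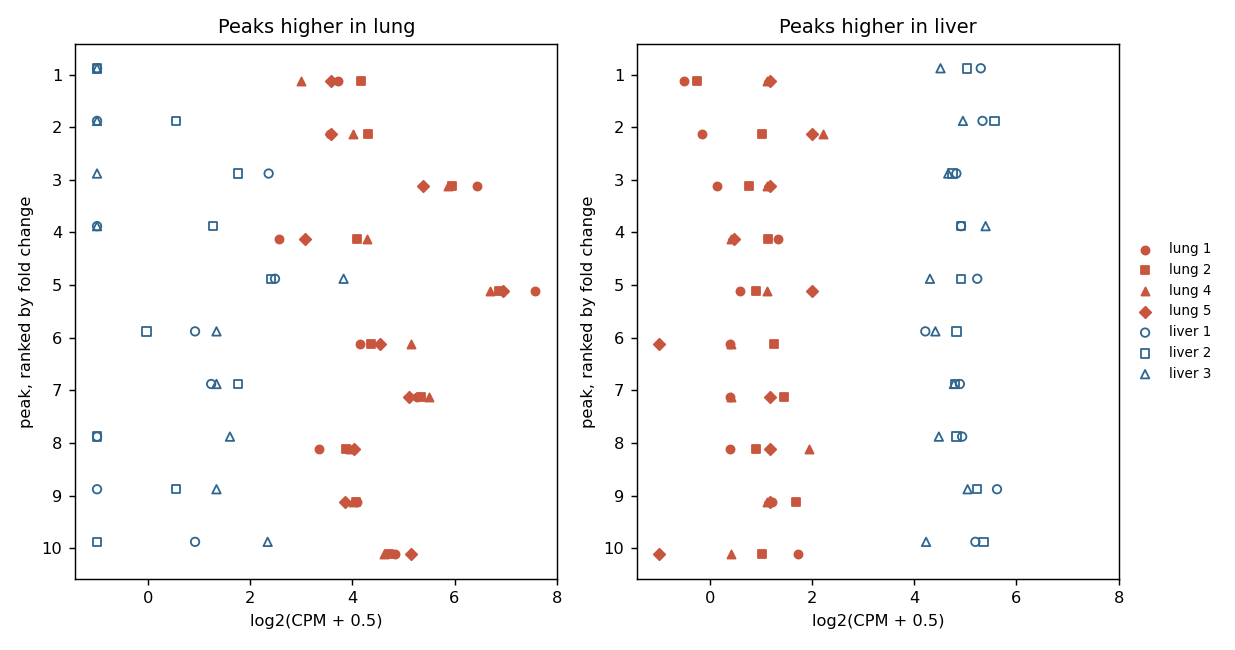
Level in every library, as log2(CPM + 0.5), at the 10 sites with the largest fold in each direction, ranked from the top by fold change. Filled red marks are the lung libraries and open blue marks the liver libraries; the choice of sites required that the tissues do not overlap, and marks at the left edge are libraries at 0 counts.

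The called peaks with the highest counts differed from these. On the lung side folds were small and levels high in all 3 tissues. Those highest in lung were chr9_random:54257-57365, on sequence not placed in the chromosome, with 753 ± 166 CPM in lung, 317 ± 110 in liver and 739 ± 156 in brain, and chr1:7387172-7388667, with 540 ± 168, 261 ± 79.2 and 513 ± 128 CPM. The other 3, on chromosomes 8 and 3, had lung means of 489 to 508 CPM. Their log2 fold changes lay between 1.04 and 1.25, and none of the 5 was called with the libraries numbered 1 and 2 of each tissue alone (edgeR adjusted p = 0.054 to 0.342). Those highest in liver all lay within 1 stretch of chromosome 11, between positions 3041703 and 3087024. Their log2 fold changes lay between −1.77 and −1.01. The highest of them, chr11:3086528-3087024, had 314, 357 and 296 CPM in liver and 74.0, 100.5, 84.4 and 122 in lung (log2 fold change −1.77, SE 0.24, edgeR adjusted p = 2.77e-08). Repeated sequence can gather reads from several places, and no repeat annotation was used, so whether these peaks count a single place was not tested.

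Among peaks without a call whose 95% interval of the log2 fold change lay within −1 and 1, the highest were chr17:39984387-39985734, chr1:24619209-24620328 and chr2:98502381-98503132. The first had 2133 ± 412 CPM in lung and 2512 ± 209 in liver, with a 95% interval of the log2 fold change from −0.93 to 0.45. The intervals of the others ran from −0.94 to 0.41 and from −0.86 to 0.51. With the offset by level, the peak on chromosome 1 was called at −1.31 (edgeR adjusted p = 0.0046). Whether these peaks count a single place was not tested either, since no repeat annotation was used.

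Sites at 0 counts in a whole tissue were rare. Of the 60119 peaks listed, 14 had no count in the liver libraries and 2 had none in the lung libraries. The second highest of the former, chr1:23185396-23185619, had 2.90, 3.97, 5.99 and 8.03 CPM of the total in lung libraries 1, 2, 4 and 5. The lung mean was 10.8-fold above a floor of 3 counts in liver, but the peak did not pass the filter on low counts. The higher of the latter, chrX:14232651-14233086, had 0.463, 2.76 and 8.62 CPM in liver and was not tested either. Its liver mean was 19.1-fold above a floor of 3 counts in lung, or 0.207 CPM. Such folds leave the scatter and counting error of the higher tissue aside, and liver library 1 was near the floor. Its 3 liver libraries rested on 23 counts in all.

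The direction of the calls went with the level of the peaks. Tested peaks were put in 5 classes of equal size by mean level. In the lowest class, 2.60% were called higher in lung and 13.1% higher in liver. In the middle class the shares were 10.4% and 17.7%, and in the highest 6.38% and 0.985%. Liver calls thus prevailed among weakly open sites and lung calls among the most open ones, with a median log2 fold change from −0.41 in the lowest to 0.34 in the highest class. With library size alone the shares in the highest class were 3.77% and 1.34%, and in the lowest 1.60% and 15.1%. The offset by level removes such a trend by its construction, and with it the shares were 5.96% and 6.09% in the lowest and 2.86% and 1.84% in the highest class.

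**Figure D3:**
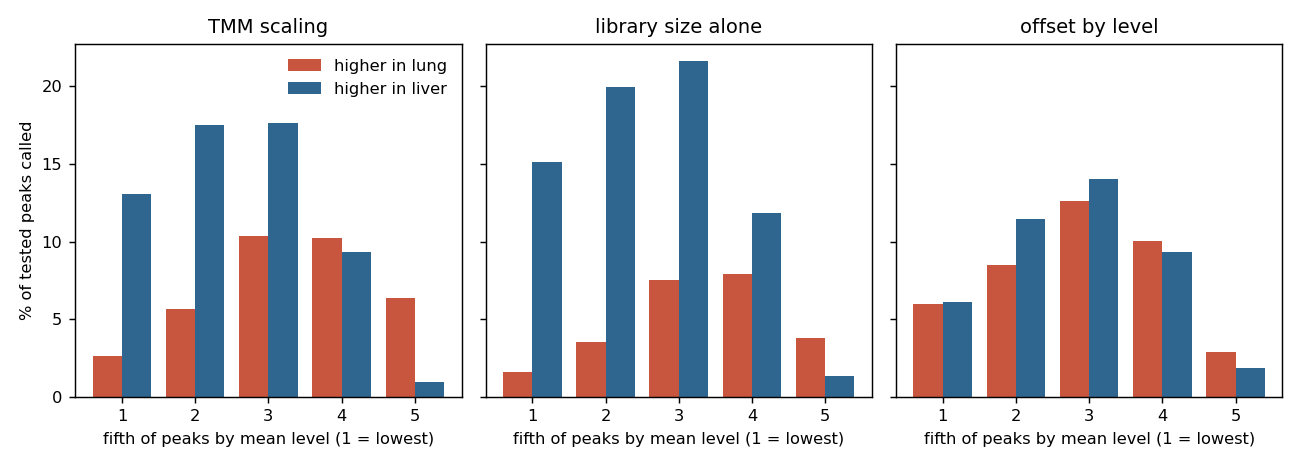
Share of tested peaks called higher in lung (red) and in liver (blue), in 5 equal classes of the peaks by mean level over the 7 libraries, with 3 ways to scale the libraries. With TMM the liver bars exceed the lung bars in the lower classes, at 13.1% against 2.60% in the lowest, and lung bars exceed liver bars in the upper 2 classes, at 6.38% against 0.985% in the highest; with the offset by level the bars of each class are closer.

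Width went with direction as well, and wide peaks are also the high ones (median 59.3 CPM and 903 bases in the highest class by level). The median width was 501 bases for peaks called higher in lung, 401 for those higher in liver and 507 for all tested. With 5 equal classes by width, in the narrowest, of 200 to 336 bases, 5.62% were higher in lung and 20.2% in liver. In the widest, of 796 to 3905 bases, the shares were 5.57% and 4.90%, and with library size alone 3.29% and 6.19%. With the offset by level most of this trend was gone: the shares were 9.62% and 13.6% in the narrowest class and 3.02% and 4.38% in the widest, and the median log2 fold change was between −0.05 and 0.03 in all 5 classes. The widest 10% of all peaks in the table held 47.8%, 43.4%, 46.5% and 45.9% of the counts in lung libraries 1, 2, 4 and 5 and 40.2%, 42.8% and 36.3% in the liver libraries. Every lung library lay above every liver library, and the difference had an exact p of 0.0286 (two-sided permutation test over 35 splits), the smallest these splits can give. The 1000 highest peaks of a library held 21.8% ± 2.42 of its counts in lung (n = 4) and 17.8% ± 2.14 in liver (n = 3), with overlap between the tissues and an exact permutation p of 0.0857. How far the spread of reads outside strong peaks sets the calls among weak ones was not tested.

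The deep and the shallow pair of lung libraries were each set against the 3 liver libraries. Lung libraries 1 and 2 gave 3684 peaks higher in lung and 5530 higher in liver, and lung libraries 4 and 5 gave 1781 and 3474. Of the 7713 calls made with all lung libraries, 91.3% were also called with the deep pair and 56.9% with the shallow pair. Neither pair gave a call in the opposite direction. Each pair is part of the libraries behind the calls and shares the liver libraries, so this is no replication. When every library was thinned to the total of the shallowest, 1849 peaks were higher in lung and 3356 in liver, among fewer peaks that passed the filter.

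Called peaks of the same direction lay close together in places. Joining called peaks at most 25000 bases apart, with no call of the other direction between them, gave 96 lung and 198 liver runs of 3 or more peaks, while 68.4% of the lung calls and 63.6% of the liver calls stood alone. These runs are built from the calls and are described without a test. The 5 runs with the most called peaks in each direction are given here, with ties going to the larger median fold. In all, 13 lung and 22 liver runs had 5 or more called peaks, so part of the choice was by fold.

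On the lung side, chr8:86272649-86349393 had 7 of 10 tested peaks called higher in lung across 76.8 kb. Their summed level was 189, 148, 95.1 and 124.5 CPM in lung libraries 1, 2, 4 and 5 and 32.0, 41.7 and 35.5 in liver, while a peak between them was at 27.1 CPM in lung and 38.3 in liver and had no call. On chromosome 17, chr17:46200212-46252951 had 7 of 8 called, with sums of 311, 246, 195 and 209.5 CPM in lung and 58.4, 48.9 and 72.6 in liver. Its strongest peak, chr17:46241255-46242066, had 124, 90.8, 91.0 and 72.8 CPM in lung and 18.5, 10.1 and 16.2 in liver. These sums cover only the called peaks, so that lung lies above liver follows from the choice; the uncalled peak of the second region had 12.3 CPM in both tissues. The brain libraries, at sums of 39.5 ± 9.57 and 46.2 ± 5.57 CPM (n = 4), were near the liver level in the first and below it in the second.

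Less stable when 1 library was left out was chr12:106749896-106792983, which had 7 of 11 called and sums of 103 ± 33.0 CPM in lung and 35.6 ± 6.02 in liver. It had 2 called peaks without lung library 1, 3 without liver library 1 and 4 without lung library 2. The other 2, chr11:89943048-89992363 and chr4:148274648-148344118, had 6 called peaks each. The latter had the highest sum of the 5 in lung, 256 ± 63.8 CPM against 75.5 ± 13.7 in liver, and its strongest peak, chr4:148299997-148301093, had 142, 99.2, 70.3 and 121 CPM in lung and 22.7, 12.5 and 19.3 in liver. Its 3 peaks without a call had log2 fold changes of −0.32, 0.65 and 0.77. With library size alone, the lung runs on chromosomes 12 and 4 kept 4 and 3 calls. With thinned libraries they kept 3 each, and the lung run on chromosome 17 kept 4.

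On the liver side, chr4:137021137-137054720 packed 8 called peaks of 11 tested into 33.6 kb. Their sums were 122, 142.5 and 115 CPM in liver and 26.5, 30.9, 46.3 and 40.3 in lung, and brain, at 136 ± 20.1 CPM, was near liver. The run chr17:74175531-74231917 had 7 of 8 called, with sums of 145.5, 158 and 122 CPM in liver against 22.3, 28.5, 28.1 and 30.7 in lung. Brain stood at 21.8 ± 6.27 CPM there, so that at all 7 of its peaks brain was nearer to lung than to liver. Within it, chr17:74195014-74195533 had 29.2, 31.7 and 18.3 CPM in liver and 0.88 to 2.05 in lung (log2 fold change −4.11, SE 0.41, edgeR adjusted p = 5.95e-12). Brain was thus near liver in the first liver region and near lung in the second.

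A similar contrast held for the next pair. In chr13:31893011-31922792, where 6 of 7 peaks were called, brain had the highest sum, 296.5 ± 36.6 CPM, followed by liver with 140 ± 24.5 and lung with 46.7 ± 5.55. Most of the brain sum came from peaks with brain means of 150 and 94.2 CPM. At the other called peaks brain had 4.63 to 27.5 CPM and liver 10.0 to 24.4. In chr16:87261697-87325169, where all 5 tested peaks were called, brain had 29.4 ± 5.09 CPM, liver 119 ± 38.4 and lung 16.7 ± 2.31. The region on chromosome 13 kept 3 of its 6 calls without liver library 1, without liver library 3 or without lung library 1. The last, chr9:32443568-32465125, had all 5 tested peaks called, with sums of 78.5 ± 12.9 CPM in liver and 18.5 ± 2.18 in lung. With lung libraries 4 and 5 alone, the 5 lung runs had 3, 4, 1, 3 and 2 calls in the order given, and the liver runs on chromosomes 4, 13 and 9 had 5, 2 and 3.

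**Figure D4:**
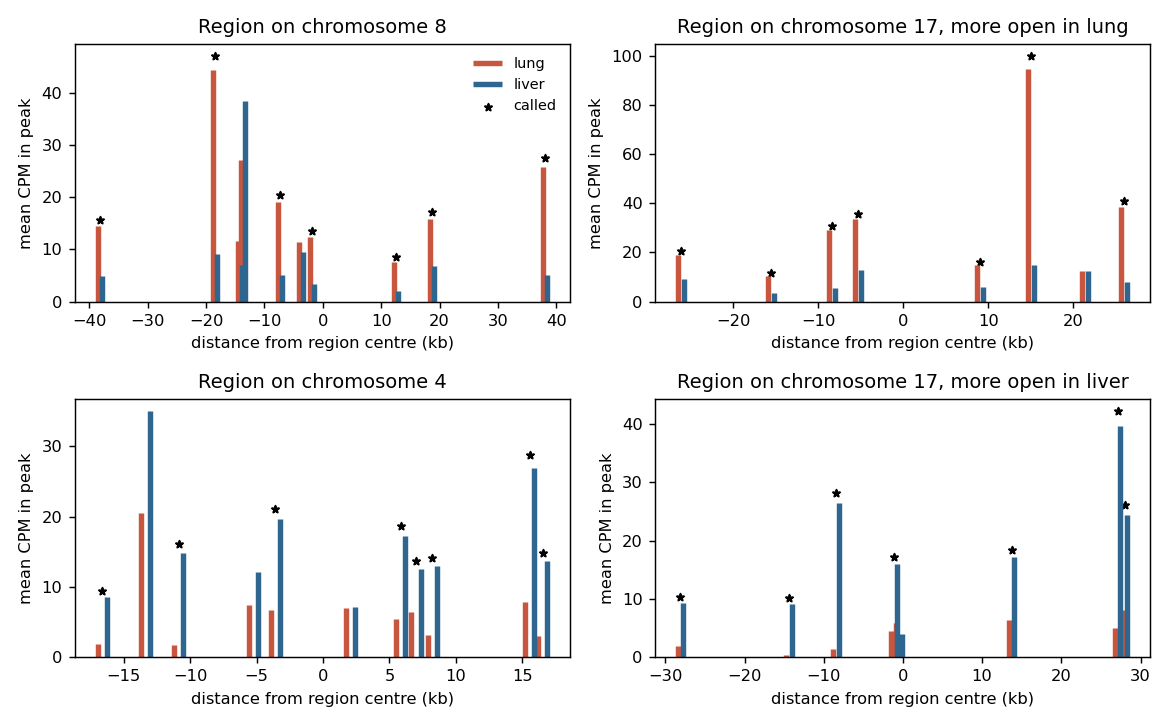
Mean CPM of each tested peak in lung (red bars, n = 4) and liver (blue bars, n = 3, drawn beside them) along the 2 runs with the most calls in each direction, against the distance from the centre of the run in kb. Ties in the number of calls went to the larger median fold. Stars mark called peaks: 7 of 10 and 7 of 8 in the lung runs above, and 8 of 11 and 7 of 8 in the liver runs below.

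Neighbouring calls mostly pointed the same way, most often at the shortest distance and least often at the longest. Of adjacent tested peaks that were both called, 92.8% had the same direction when their centres lay under 2000 bases apart (244 of 263 pairs). The share was 83.9% at 2000 to 10000 bases, 79.2% at 10000 to 50000, 79.2% at 50000 to 200000 and 60.3% beyond (76 of 126 pairs). With 37.6% of all calls higher in lung and the rest in liver, unrelated calls would also often share a direction. The share expected from this split was not computed. Of all tested peaks, 7.05% were called higher in lung and 11.7% in liver. After a lung call, the next peak was called higher in lung at 24.3% and in liver at 3.00% under 2000 bases. Beyond 200000 bases this was 11.8% and 16.4%. After a liver call, the next was higher in liver at 37.7% and in lung at 2.08% under 2000 bases, and at 16.6% and 5.6% beyond 200000. Neighbours share their stretch of chromosome and its background, so these shares are a description.

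In 19 of the closest pairs the direction switched within 2000 bases. The clearest, ranked by the smaller of both folds after the values had been seen, lay on chromosome 18 with centres 1417 bases apart. Its peak chr18:12505824-12506159 had 1.81, 0.17, 0.83 and 7.89 CPM in lung and 9.27, 11.99 and 8.12 in liver (log2 fold change −2.37, SE 0.61, edgeR adjusted p = 0.00214). Its neighbour chr18:12507172-12507646 had 9.85, 9.39, 13.2 and 14.9 CPM in lung and 4.17, 0.96 and 1.52 in liver (log2 fold change 2.32, SE 0.51, edgeR adjusted p = 0.000312). Neither peak overlapped between the tissues, although lung library 5 came close to liver at the first. A second switch lay on the same chromosome, between chr18:60820467-60820796, with 5.06 ± 3.28 CPM in lung and 17.95 ± 7.12 in liver, and chr18:60820962-60821433, with 16.3 ± 4.29 and 6.39 ± 4.15, at a distance of 566 bases.

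The brain libraries, which played no part in the calls, helped to place the differing sites. Brain was at least 2-fold above both other tissues at 1.83% of the peaks called higher in lung and at 9.62% of those higher in liver, against 8.14% of all tested peaks. It was otherwise nearer to liver at 48.9% of the lung calls and nearer to lung at 29.8%. At the liver calls it was nearer to lung for 56.1% and nearer to liver for 20.5%. For all tested peaks the shares were 46.8% nearer to lung and 32.3% nearer to liver. In levels, peaks called higher in lung had a median of 17.2 CPM in lung, 5.91 in liver and 5.77 in brain, and those called higher in liver had 3.97, 13.8 and 4.21 CPM. Choosing peaks by the lung and liver values itself favours an extreme value in one of them, so these shares describe the called peaks and are no test.

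**Figure D5:**
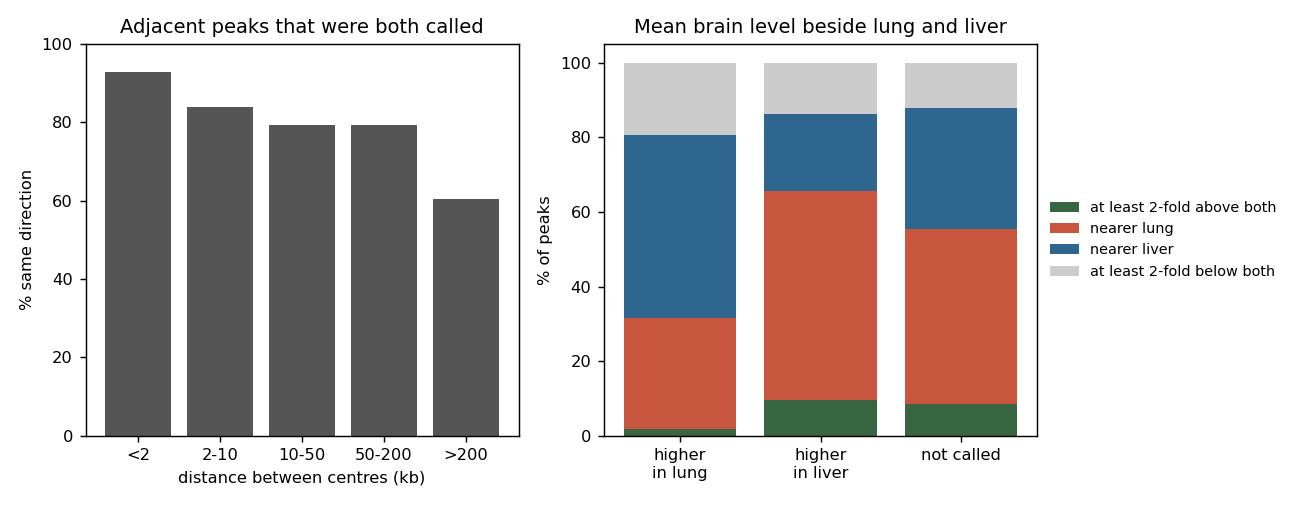
Left, the share of adjacent tested peaks, both called, that had the same direction, by distance between centres in kb; it was 92.8% under 2 kb and 60.3% beyond 200 kb. Right, the place of the mean brain level beside the lung and liver means, as % of the peaks called higher in lung, called higher in liver and not called; brain was nearer to liver at 48.9% of the lung calls and nearer to lung at 56.1% of the liver calls.

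The X chromosome leaned towards lung. Of its 751 tested peaks, 10.5% were called higher in lung and 7.99% higher in liver, and its median log2 fold change was 0.27. With library size alone the shares were 6.26% and 9.45% and the median 0.10, so the order of the shares turned; with the offset by level they were 9.99% and 4.93%. The X chromosome held 2.03%, 1.82%, 2.30% and 2.05% of the counts in the lung libraries and 1.79%, 1.88% and 1.56% in the liver libraries. The tissues overlapped, at an exact permutation p of 0.0857 (two-sided, adjusted to 0.225 over 21 chromosomes). All 4 tested peaks of the Y chromosome were without a call, and the Y share of counts was 0.00425% ± 0.00166 in lung and 0.00532% ± 0.00131 in liver. The labels do not give the sex of the mice, and its part in these values was not tested. Of the other chromosomes, 7 had a larger share in every lung library (7.46% ± 0.208 against 6.66% ± 0.108), and 13, 14, 16 and 18 a larger one in every liver library. For 14 and 16 this was only just so: the nearest libraries stood at 3.57% on 14 and 3.58% on 16. The exact permutation p for the difference of means was 0.143 for chromosome 14 (0.333 adjusted). For each of the other 4 it was 0.0286, the smallest possible, and 0.15 after adjustment over 21 chromosomes.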

How the data were processed

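ATAC values were deposited as counts of reads per peak for 4 lung, 3 liver and 4 brain libraries; per the file headers the peaks are 1 merged set made with library lung 3 excluded. The header numbers 4 and 5 of the lung columns could not be tied to a title, so these entered as lung libraries without a number. Bulk RNA values were deposited as raw counts per gene, per the file headers, and served only for the marker check. Per the submitters' processing notes the tools included Bowtie2, SAMtools 1.10.2, Picard, MACS2 and bedtools, with builds mm9 and mm10, without saying which served which assay. The spelling of the chromosome names occurs in mm9. The single-cell table was not used here.

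The test was edgeR 4.0.16 in R 4.3.3 on the deposited counts of the 7 lung and liver libraries: filterByExpr kept 41126 of 60119 peaks, TMM scaled the libraries, and a robust quasi-likelihood fit gave a mean per tissue (biological coefficient of variation 0.229). Calls needed a Benjamini-Hochberg adjusted p under 0.05 and a log2 fold change of 1 or more in size. Brain CPM were scaled with the same peaks, and brain was placed on log2(CPM + 0.1). Levels are mean ± SD over libraries.

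Named were, per direction, the 10 called peaks with the largest fold (mean log2 CPM of at least 3, no overlap), the 5 called peaks with the highest level, up to 3 at 0 counts in the other tissue, 3 high peaks without a call, and the 5 runs with the most calls; the text gives part of these. Runs with equal numbers of calls were ranked by their median fold, the larger first. The comparison, lists and rules were chosen with earlier results of these data known. The test was also tried on counts simulated with the spread of the main fit, with 200 peaks changed. At an adjusted p under 0.05 without a minimum fold, it recovered 20% of the changes of 2-fold and 82% of those of 4-fold. In the data 25.7% of the tested peaks reached this adjusted p, a far larger share than was changed in the simulation. The adjustment depends on that share, so these rates do not carry over to the data. Alternatives covered scaling, filters, DESeq2 1.42.0, limma 3.58.1, depth, libraries left out and a replicate block.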

Additional observations from a re-analysis of the deposited data

Results flagged for a closer look

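In the lung group of 4, Dixon's gap ratio was above its 95% critical value in 3 of 58 groups of values, where chance gives about 1 in 20. At chr6:17941538-17942047, a liver site, lung library 2 stood above the others, with 2.73 CPM against 1.66 to 1.81 (ratio 0.856), all far below liver. For the share of counts in the 1000 highest peaks of a library, lung library 2 was the lowest, at 18.2% against 22.6% to 23.4% (ratio 0.833), a value within the range of the liver libraries, 15.6% to 19.8%. For the share of counts on chromosome 14, lung library 5 was the lowest, at 3.45% against 3.56% to 3.57% (ratio 0.881).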

How the results depend on the processing

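Over all settings run, no peak called in the main comparison was called in the opposite direction. All settings reuse the same libraries, so this adds no independent support. The number of called peaks (7713) moved by over 1.5 times with a filter at a mean log2 CPM of 3 (4912, with 1878 higher in lung and 3034 in liver, among 26253 peaks tested) and with glmTreat against a log2 fold change of 1 (2386, with 687 and 1699); by construction the former tests fewer peaks and the latter asks for more than a 2-fold difference. Peaks higher in lung also moved to 1849 with thinned libraries and to 1781 with lung libraries 4 and 5 only, which hold fewer counts. The other scalings and filters, DESeq2 (7001) and limma voom (8387) left the total within 1.5 times. Leaving out 1 library at a time gave 5917 to 7853 called peaks, 2041 to 3505 higher in lung and 3699 to 5007 higher in liver; without liver library 2, 48.3% of the calls were higher in lung. Leaving out chromosomes X and Y and unplaced sequence, chosen after the data were seen, gave 7563.

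For the share of peak counts in the widest 10 percent of peaks, the difference of 6.12 percentage points ranged from 4.40 to 7.64 without 1 library and was 5.81 and 6.42 with lung libraries 1 and 2 or 4 and 5 only. The exact permutation p then was 0.0667 to 0.2, in designs too small to go under 0.05. Deviations of same-numbered lung and liver libraries from their tissue means correlated at −0.0354 and −0.0496. The other pairs of a lung and a liver library ran from −0.0571 to 0.0864. With so few libraries and low counts per peak, these values cannot tell whether libraries of the same number were paired. With the replicate block, on libraries 1 and 2 of each tissue, 7881 peaks were called, and 8547 without it on the same libraries. Among named peaks, 23 results under alternatives no longer had an adjusted p under 0.05 and 1 gained a call, all among the peaks chosen for a high level. This count leaves the 2-fold rule aside. With the offset by level, the 5 highest lung calls had log2 fold changes of only 0.35 to 0.60, at an edgeR adjusted p still under 0.05. Depth limits the shallow lung libraries most, with 4928 and 4038 peaks at 0 counts.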

Other observations

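Calls were spread over all autosomes at unequal rates. The share of tested peaks called higher in liver ran from 7.97% on chromosome 11 and 8.02% on chromosome 19 to 14.8% on chromosome 13 and 14.2% on chromosome 16, and the share called higher in lung from 5.82% on chromosome 13 to 8.20% on chromosomes 15 and 17. Chromosomes 11 and 19 also had higher peaks, with median levels of 12.2 and 12.03 CPM against 10.3 CPM on chromosome 13, and their part in the rates was not tested. On unplaced sequence 4 of 94 tested peaks were higher in lung and 9 higher in liver.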
